A study of Mus musculus with 12 samples.

Results

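The genes described here encode the subunits of the mitochondrial respiratory chain and of ATP synthase, in mouse bone marrow monocytes exposed to platelets, to lipopolysaccharide (LPS) or to both. Members were chosen by gene name: the families Ndufa, Ndufb, Ndufc, Ndufs and Ndufv of complex I, Uqcr of complex III, the families Cox4 to Cox8 of cytochrome c oxidase (complex IV), Atp5 of ATP synthase, and the subunits encoded in mitochondrial DNA, whose names start with mt-. Assembly factors named Ndufaf and pseudogenes were dropped, and a gene was kept with at least 10 counts in at least 3 of the 12 libraries. Of 53819 genes in the files, 100 had such a name and 87 were kept: 79 nuclear genes and 8 mt genes. The nuclear genes comprised 37 of complex I, 8 of complex III, 17 of complex IV, where Ndufa4 was counted, and 17 of ATP synthase. The mt genes were mt-Nd1 to mt-Nd6 without mt-Nd4l, mt-Co1, and cytochrome b, which the files spell mt-Cytb. All but Cox6c2, which had 11 counts at most, also passed edgeR's filter on low counts, so 78 nuclear and 8 mt members were tested.

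All cells were labelled as monocytes from the bone marrow of wild-type C57Bl6J mice, with 3 libraries in each of 4 groups. The untreated group received nothing. The platelet group was kept with platelets overnight and washed, the LPS group received LPS only, and the platelet plus LPS group was kept with platelets overnight, washed and then given LPS. LPS is a component of the bacterial outer membrane that is sensed through Toll-like receptor 4. The sources used here do not state doses, the time with LPS, where the platelets came from or how pure the monocytes were. Platelet replicate 1 carries the word Control in its description but platelets in its title and treatment, and it was kept in the platelet group.

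Complexes I, III and IV pass electrons from NADH to oxygen and pump protons across the inner mitochondrial membrane, and ATP synthase uses the returning protons to make ATP. Complexes I, III and IV and ATP synthase each combine nuclear-encoded subunits, made in the cytosol and imported, with a few core subunits that are encoded in mitochondrial DNA and translated inside the organelle. Macrophages and monocytes given LPS are known to shift towards glycolysis and to remodel their electron transport chain, so the balance of the 2 genomes' transcripts is of interest in this cell type.

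The libraries held 20060867 to 32155727 counts, so 3 counts corresponded to 0.0854 to 0.163 CPM, the read count scaled to a common library size per 1e6 reads. CPM was computed on library totals after TMM scaling, edgeR's default correction for differences in composition. The monocyte genes Csf1r and Lyz2 averaged 1042 to 1708 and 28263 to 37834 CPM over the groups, and Cd3e, which defines T cells, was at 0 in all libraries. The 7 T and NK cell markers summed to 0.842 to 1.23 CPM in untreated cells and 1.57 to 3.38 CPM with platelets. The 10 neutrophil markers summed to 25.7 to 33.5 CPM in untreated cells and 34.3 to 51.8 CPM with platelets. The summed 10 monocyte markers ranged from 33983 to 43264 CPM, most of it Lyz2. With LPS 4 of these 10 were called higher and 3 lower by edgeR, beside 27.7% and 23% of tested genes. No label ties a library to its own mouse or culture. The p-values below therefore describe variation among these libraries, part of which may be technical. In such bulk libraries, fewer cells of a type and less RNA per cell cannot be told apart.

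Several libraries stood apart in these genes. Platelet replicate 1 had the highest level of the 12 libraries for 65 of 78 nuclear members, against 20.4% of all tested genes. LPS replicate 3, which was also the shallowest library, had the lowest level for 36 of 78 nuclear members, against 14.6% of all tested genes, and the highest level for 5 of 8 mt members. Untreated replicate 1 had the lowest level for 26 of 78 nuclear members, against 7.82% of all tested genes. Results that rest on platelet replicate 1 or LPS replicate 3 are given with and without them. The fit without both of these was chosen after the data were seen.

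The 79 nuclear members summed to 13149, 14087 and 15782 CPM in the untreated libraries, or 1.53 to 1.78% of all counts. Per kilobase of transcript, taken from the matched GENCODE M21 transcript of 75 of the 79, the highest member in untreated cells was Atp5b, the catalytic beta subunit of ATP synthase, at 838 CPM per kb. Cox6a1 (711), Cox6b1 (659), Cox4i1 (588) and Atp5g3 (587 CPM per kb) followed. Atp5g3 is 1 of 3 genes that encode the same subunit c of the ATP synthase ring, and its mean of 424 ± 46.5 CPM (SD, n = 3) in untreated cells stood above those of Atp5g1 at 244 ± 22.6 and Atp5g2 at 32.4 ± 3.65 CPM.

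Isoforms known from other tissues were low. Cox4i2, the isoform of subunit 4 known from lung and low-oxygen settings, was between 0 and 0.532 CPM in the 12 libraries, where its partner Cox4i1 was between 413 and 739 CPM. Cox6a2, known from heart and muscle, and Cox6b2, known from testis, ranged from 0.14 to 1.6 CPM and from 0.325 to 2.01 CPM, and Cox7a1, another muscle isoform, from 5.86 to 14.4 CPM. In all, 8 nuclear genes with a matching name did not reach the count minimum: the isoform genes Cox7b2, Cox8b, Cox8c and Ndufa4l2, and Ndufs6b, Ndufb4c, Ndufb11b and Ndufa11b.

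Promoter elements known from other work on nuclear genes for mitochondrial proteins were searched, and the matches are shown because they are the known DNA features of this gene class. A minority of members held each of them. RefSeq promoters (GRCm38.p6, 250 bases before to 50 after the gene start) were matched for 65 nuclear members. The site of nuclear respiratory factor 1 (NRF1), a string of 10 letters that reads the same on both strands and stands in capitals below, was found in 5 of 65, or 7.69%, against 2.11% of 9788 promoters of tested genes and 0.977% of 27025 promoters. The YY1 form AAGATGGC, searched on both strands, was found in 9 of 65, or 13.8%, against 4.96% and 2.88%. The ETS form CCGGAAGT was found in 7.69% against 8.83% and 4%. The NRF1 matches are written 5′ to 3′ on the gene's strand with the match in capitals.
Atp5g2, chr15:102671070-102671099, minus strand: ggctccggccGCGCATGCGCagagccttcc
Atp5k, chr5:108434430-108434459, minus strand: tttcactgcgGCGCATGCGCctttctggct
Cox6a1, chr5:115349101-115349130, minus strand: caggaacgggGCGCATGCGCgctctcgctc
Ndufa11, chr17:56717692-56717721, plus strand: cctgcactgcGCGCATGCGCgcacgccttg
Uqcrc1, chr9:108936668-108936697, plus strand: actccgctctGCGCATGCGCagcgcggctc

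The YY1 matches of the 7 complex I genes that held one, again with the match in capitals, lay 22 to 38 bases after the gene start, where the transcript begins.
Ndufa3, chr7:3617384-3617413, plus strand: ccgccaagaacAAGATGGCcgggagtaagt
Ndufa9, chr6:126849097-126849126, minus strand: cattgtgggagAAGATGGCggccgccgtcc
Ndufb8, chr19:44555393-44555422, minus strand: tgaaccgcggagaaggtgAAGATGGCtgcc
Ndufc1, chr3:51408915-51408944, minus strand: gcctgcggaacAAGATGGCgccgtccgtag
Ndufs4, chr13:114388045-114388074, minus strand: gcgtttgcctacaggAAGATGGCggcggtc
Ndufs6, chr13:73328433-73328462, minus strand: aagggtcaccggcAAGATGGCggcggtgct
Ndufs7, chr10:80249462-80249491, plus strand: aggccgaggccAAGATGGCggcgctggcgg
A match is a string of letters and not a measured binding site. Of the 5 members with the NRF1 form, Uqcrc1 was called higher with LPS, where 27.7% of all tested genes were, and the log2 fold changes ranged from −0.20 to 0.26. Of the 9 with the YY1 form, Ndufa9 passed, with a range from −0.09 to 0.35.

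**Figure D1:**
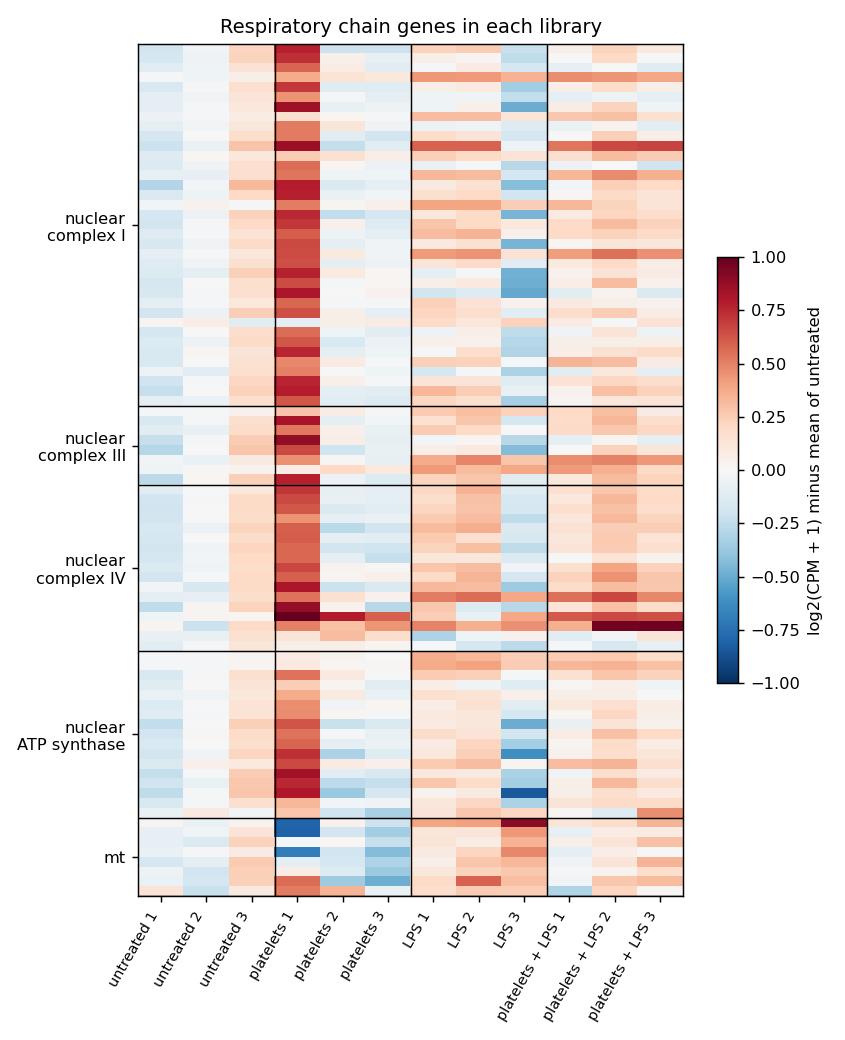
Level of each of the 87 members (rows, grouped by complex) in each of the 12 libraries (columns), as log2(CPM + 1) minus the mean of the untreated libraries, with colours capped at −1 and 1. Platelet replicate 1 was the highest library for 65 of 78 tested nuclear members and LPS replicate 3 the lowest for 36.

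The first comparison asks what LPS alone did to the respiratory chain. With TMM scaling, 10 nuclear members and 1 mt member rose. Among them were the complex I subunits Ndufv1 and Ndufa9, and the core proteins and Rieske protein of complex III (Uqcrc1, Uqcrc2, Uqcrfs1). Cox7a2l, Cox6a2, the alpha and beta subunits of ATP synthase (Atp5a1, Atp5b) and mt-Co1, the catalytic subunit of complex IV, also rose. The rises were 1.19-fold to 1.5-fold, apart from Cox6a2 at 2.35-fold and under 1 CPM. By edgeR's quasi-likelihood test with Benjamini-Hochberg adjustment, 10 of 78 nuclear members were called higher, beside 27.7% of all tested genes, and 0 lower, beside 23%. At an unadjusted p under 0.05 the counts were 12 and 0. DESeq2 called the same 11 members, beside 27.5% of tested genes higher. LPS moved 50.7% of tested genes in either direction. The groups did not overlap, with LPS higher, for 14 of 78 nuclear members beside 32.1% of tested genes. Their median log2 fold change was 0.09 where that of all tested genes was 0.01, and their median absolute change was 0.115 against 0.471.

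Atp5a1, the alpha subunit, was at 935, 928 and 962 CPM in untreated cells and at 1217, 1245 and 1123 CPM with LPS. All LPS libraries lay above all untreated ones. The fold change was 1.27 (log2 0.34, SE 0.07, edgeR adjusted p = 0.000415). Atp5b stood at 1592, 1588 and 1635 CPM untreated and at 2066, 2019 and 1905 CPM with LPS, again without overlap (1.24-fold, log2 0.32, SE 0.06, edgeR adjusted p = 0.00052). These are the subunits that form the catalytic head of ATP synthase, and the other 15 nuclear members of that complex were not called.

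In complex I, 3 of 37 nuclear members were called higher, or 8.11%, beside 27.7% of tested genes. Ndufv1, which binds NADH, had a log2 fold change of 0.35 (SE 0.12, edgeR adjusted p = 0.0196) and Ndufa9 one of 0.25 (SE 0.09, edgeR adjusted p = 0.0242). Ndufv1 did not pass in 5 of 20 alternatives (adjusted p from 0.000276 to 0.802), and Ndufa9 did not without untreated replicate 1 or 2 or LPS replicate 1 or 2. The largest iron-sulfur subunit, Ndufs1, was not called at 97.0 ± 3.90 CPM against 85.7 ± 5.43 (SD, n = 3; log2 0.18, 95% interval −0.02 to 0.38). The remaining 33 of the 37 complex I members were not called either.

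Uqcrc2, a core protein of complex III, was at 106, 109 and 112 CPM untreated and 146, 136 and 143 CPM with LPS (1.30-fold, log2 0.38, SE 0.08, edgeR adjusted p = 0.00119). Uqcrfs1, the Rieske protein that carries electrons to cytochrome c1, was at 125, 123 and 137 CPM and 166, 180.5 and 156 CPM (1.30-fold, log2 0.38, SE 0.12, edgeR adjusted p = 0.0136). In both genes every LPS library was above every untreated one. With Uqcrc1 at 1.20-fold (edgeR adjusted p = 0.017), 3 of 8 nuclear complex III members were called, or 37.5%, beside 27.7% of tested genes. Uqcrc1 did not pass in 5 of 20 alternatives and Uqcrfs1 not in 3.

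Cox7a2l, also known as SCAF1, was at 32.5, 32.7 and 39.3 CPM untreated and 49.9, 51.6 and 45.7 CPM with LPS (1.41-fold, log2 0.49, SE 0.13, edgeR adjusted p = 0.00417). The LPS libraries lay above the untreated ones. Cox4i1, the main subunit 4 of complex IV, was at 419, 447 and 485 CPM untreated and at 518, 571 and 413 CPM with LPS, so the groups overlapped (log2 0.15, 95% interval −0.25 to 0.56). Cox6a2 was called with an edgeR adjusted p of 0.0491 on 0.351, 0.14 and 0.51 CPM against 0.869, 0.691 and 0.817 CPM, and in 15 of 19 alternatives it did not pass (adjusted p from 0.0286 to 0.181).

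These directions rest on the scaling. With library size alone the median of all tested genes moved from 0.01 to −0.37 with LPS, and the nuclear median was −0.29. Of the nuclear members 0 were then called higher, beside 16.2% of tested genes, and 26 lower, beside 45.4%. Relative to the median of all tested genes the nuclear median was 0.08 with TMM and 0.08 with library size alone, and the mt median 0.24 and 0.25. The values of Atp5a1, Atp5b, Uqcrc1, Uqcrc2 and Ndufv1 turned slightly negative under that scaling, from −0.00088 to −0.11.

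Under TMM scaling the LPS effect on most nuclear members was bounded. For 56 of 78, or 71.8%, the 95% interval of the LPS effect lay inside a 1.5-fold change in either direction, against 28.4% of all tested genes. The nuclear members were not measured more precisely, with a median SE of 0.165 against 0.155. Their median absolute log2 change was smaller, at 0.115 against 0.471. The 10 called members had a median transcript length of 1638 bases (680 to 2674) against 753 (371 to 4715) for the 65 others with a matched length, so the ranges overlapped, and the part of length in the calls was not tested. Without both platelet replicate 1 and LPS replicate 3, 25 of 78 nuclear members were called higher, beside 28.4% of all tested genes, with a median of 0.16. Leaving out LPS replicate 2 alone lowered the count to 5, beside 25.1% of tested genes. Without untreated replicate 1 the nuclear median was 0.009, beside 0.006 for all tested genes.

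**Figure D2:**
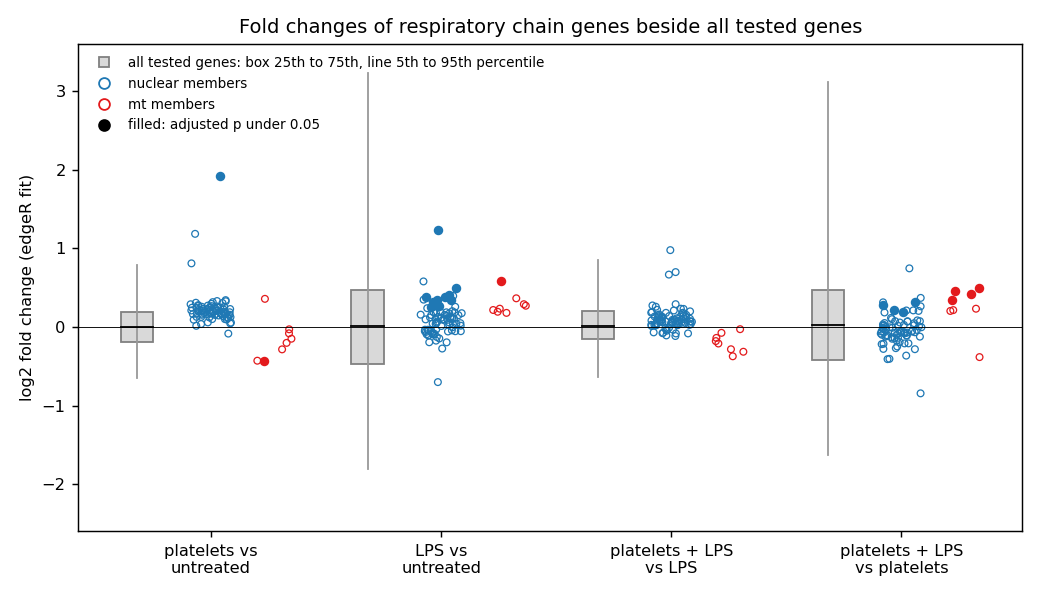
Log2 fold changes (edgeR fit) of the nuclear and mt members in 4 comparisons, one point per member and filled where the adjusted p was under 0.05, beside all 13151 tested genes (box from the 25th to the 75th percentile, line from the 5th to the 95th). With LPS the nuclear members sit close to 0, with a median of 0.09, inside a wide spread of all genes, and the mt members all lie above 0.

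The second comparison asks what platelets alone did. Of the nuclear members only Cox6b2 rose, and of the mt members only mt-Nd5 fell. By edgeR's quasi-likelihood test, 1 of 78 nuclear members was called higher, beside 3.63% of all tested genes, and 0 lower, beside 2.86% (6.49% in either direction). At an unadjusted p under 0.05 the counts were 3 and 0. DESeq2 called 2 and 0, beside 5.88% and 3.94% of tested genes. The nuclear median was 0.20 and 77 of 78 members were above 0, but without platelet replicate 1 the median was −0.02.

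Cox6b2, the testis isoform of subunit 6b, was at 0.351, 0.421 and 0.408 CPM untreated and at 2.01, 1.41 and 1.11 CPM with platelets. All platelet libraries were above all untreated ones. The fold change was 3.79 (log2 1.92, SE 0.40, edgeR adjusted p = 0.00879), and without platelet replicate 1 it was 3.22 (adjusted p = 0.0302). It passed in all 20 alternatives, with adjusted p from 0.000199 to 0.0482. The ubiquitous isoform Cox6b1 was at 352, 407 and 463 CPM untreated and 621, 365 and 374 CPM with platelets (log2 0.16, 95% interval −0.25 to 0.56), with only platelet replicate 1 outside the untreated range. Cox6b2 with platelets and LPS was at 1.13, 1.2 and 1.17 CPM, against 0.652, 0.325 and 0.817 CPM with LPS alone. That 1.97-fold difference was not called (edgeR adjusted p = 0.185).

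The lift of platelet replicate 1 ran through all complexes. Cox4i1 was at 739 CPM there and at 424 and 421 CPM in the other platelet libraries, and Ndufa2 at 339.9 against 171 and 171 CPM. Nuclear members made up 2.21% of its counts, against 1.58 and 1.60% in platelet replicates 3 and 2. The excess over the other platelet libraries was larger for short transcripts. It had a median of 0.743 (log2) in the 25 shortest members, 371 to 680 bases. In the 25 longest, 1079 to 4715 bases, the median was 0.473. Among other tested genes it was 0.417 in the 462 grouped with the shortest members and −0.04 in the 11709 grouped with the longest. These groups of other genes had no outer length limit, so they were not matched to the members in length. Across the 75 members with a length Pearson's r was −0.48 and Spearman's rho −0.49, a description over genes of the same libraries. The platelet genes Gng11 and Gp9 were also highest there, at 148 CPM against 77.1 and 73.6, and 12.7 CPM against 9.38 and 8.26. They were at most 2.43 and 0.0724 CPM in libraries without platelets, while the platelet marker Pf4 was between 3147 and 5729 CPM in the 12 libraries. The summed 19 platelet markers ranged from 3570.0 to 6421 CPM in the platelet group and 3818 to 4524 CPM in untreated cells. Of 16 tested, 10 were called higher and 1 lower with platelets, beside 3.63% and 2.86% of all tested genes. The summed 7 erythroid markers were 11.9 to 24.5 CPM against 1.12 to 1.61 CPM. The 7 basophil and mast cell markers summed to 7.85 to 9.71 CPM against 1.37 to 2.56 CPM (4 of 5 tested called higher). The 7 dendritic cell markers summed to 6.03 to 8.37 CPM against 1.80 to 2.81 CPM (3 of 6), both beside 3.63% of tested genes. With LPS alone, where no platelets were added, these sums were 103.5 to 106.9 and 76.7 to 92.1 CPM. Of the 5 tested basophil and mast cell markers, 2 were then called higher and 1 lower, and 3 were below 0. Their median log2 value was −1.30 and the highest 8.78. Of the 6 dendritic cell markers 4 were called higher and 0 lower, beside 27.7% and 23% of tested genes. The part of other cell types, and of transcript length, in the nuclear members' levels was not tested.

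The third comparison asks whether platelets beforehand changed the levels reached with LPS. By edgeR's quasi-likelihood test 0 of 78 nuclear members were called in either direction, beside 4.41% of tested genes higher and 2.87% lower (7.28% in either direction). At an unadjusted p under 0.05 there were 1 higher and 0 lower. DESeq2 called 0, beside 5.99% of tested genes higher and 4.43% lower. The nuclear median was 0.08, and −0.017 without LPS replicate 3. For 75.6% of members the 95% interval lay inside a 1.5-fold change. Of the 8 mt members 0 were called by edgeR or DESeq2 and 2 were lower at an unadjusted p under 0.05. All 8 were below 0, with a median of −0.19. The values furthest below 0 were those of mt-Co1, mt-Nd3 and mt-Nd5. mt-Co1 was at 731, 752 and 843 CPM against 879, 886 and 1246 CPM (log2 −0.37, edgeR adjusted p = 0.24). mt-Nd3 had a log2 value of −0.31 at 2.0 to 3.41 CPM (edgeR adjusted p = 0.567) and mt-Nd5 one of −0.28 (edgeR adjusted p = 0.205). In the fit without platelet replicate 1, mt-Co1 and mt-Nd5 were called lower (edgeR adjusted p = 0.0298 and 0.0473), beside 5.73% of tested genes. The group of that library is not in this comparison but shares the estimate of the spread.

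The fourth comparison asks what LPS did in cells that had met platelets. With TMM scaling 4 of 78 rose, Atp5a1, Atp5b and Uqcrfs1 among them, beside 27.6% of all tested genes, and 0 fell, beside 21.8% (49.4% in either direction). The groups did not overlap, with LPS higher, for 3 of 78 beside 30.2% of tested genes. DESeq2 called 4 higher and 5 lower (Ndufa8, Ndufs7, Uqcr11, Ndufb10 and Ndufv2), beside 26.2% and 25.5% of tested genes. At an unadjusted p under 0.05 in edgeR 2 fell. Atp5a1 went from 1010.4, 957 and 949.7 CPM to 1185, 1201 and 1157 CPM (1.21-fold, edgeR adjusted p = 0.00229), without overlap. Atp5b was 1.15-fold higher (edgeR adjusted p = 0.0163, not past the threshold in 5 of 20 alternatives, which ran from 0.00431 to 0.137) and Uqcrfs1 1.25-fold higher with overlapping groups (edgeR adjusted p = 0.0362, not past the threshold in 8 of 20 alternatives). The nuclear median was −0.05, and 0.16 without platelet replicate 1, when 14 members were called higher, beside 25.6% of tested genes. With library size alone 0 were higher, beside 16.7% of tested genes, and 42 lower, beside 43.7%.

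Whether LPS and platelets acted differently together than apart was tested with the interaction term, which subtracts the effect of platelets in cells without LPS from their effect in cells given LPS. It called 0 of 78 nuclear and 0 of 8 mt members in edgeR, beside 0.859% of tested genes higher and 0.722% lower (1.58% in either direction). DESeq2 and an unadjusted p under 0.05 also gave 0. The nuclear median was −0.10, and 0.11 without platelet replicate 1, so no sign was common to both.

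With LPS all 8 mt members were above 0 under TMM, with a median of 0.25, or −0.12 with library size alone, and mt-Co1 was called. Its levels were 681, 639 and 683 CPM untreated and 879, 886 and 1246 CPM with LPS, and LPS replicate 3 was far above the other 2. The fold change was 1.5 (log2 0.59, SE 0.17, edgeR adjusted p = 0.00874), and without LPS replicate 3 it was not called (log2 0.41, adjusted p = 0.0625). mt-Nd5 and mt-Nd3 were also without overlap but not called (log2 0.27 and 0.29, edgeR adjusted p = 0.0753 and 0.371).

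With platelets the mt members were on the other side of 0. mt-Nd5, a proton-pumping subunit of complex I, was at 231, 238 and 256 CPM untreated and 149, 211 and 178 CPM with platelets. All 3 platelet libraries were below the untreated ones, and platelet replicate 1 was the lowest. It fell by 0.43 on the log2 scale (SE 0.12, edgeR adjusted p = 0.0471), beside 2.86% of tested genes called lower. The call was lost in 13 of 20 alternatives (adjusted p from 0.00337 to 0.138), among them without platelet replicate 1 (log2 −0.29, adjusted p = 0.13). mt-Cytb, the mt-encoded core of complex III, had the same size of difference at 361, 555 and 499 CPM against 600.0, 613 and 691 CPM (log2 −0.43, edgeR adjusted p = 0.0697). Its groups did not overlap either. mt-Nd1, mt-Nd2, mt-Nd4, mt-Nd6 and mt-Co1 had log2 values from −0.28 to −0.03 and mt-Nd3, the only one above 0, 0.36 on 2.17 to 4.26 CPM.

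With LPS after platelets, 4 of 8 mt members rose under TMM scaling, mt-Co1, mt-Nd4, mt-Nd5 and mt-Cytb, by 1.27-fold to 1.41-fold, while the mt median was 0.29 with TMM and −0.07 with library size alone (edgeR adjusted p from 0.00965 for mt-Nd5 to 0.0317 for mt-Nd4), beside 27.6% of tested genes called higher. mt-Nd5 was at 225, 253 and 240.0 CPM there and at 149, 211 and 178 CPM with platelets alone. The platelet plus LPS libraries lay above the platelet ones. Without platelet replicate 1, 2 of 8 were called, mt-Nd4 and mt-Nd6, beside 25.6% of tested genes called higher. In that fit mt-Co1, mt-Nd5 and mt-Cytb had log2 values of 0.24, 0.24 and 0.23. mt-Nd4 did not pass in 7 of 20 alternatives (adjusted p from 0.0105 to 0.929), and with library size alone none of the 4 did. The untreated group is shared by the platelet and LPS comparisons and the platelet group by this one, so the 3 sets of values are not independent.

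**Figure D3:**
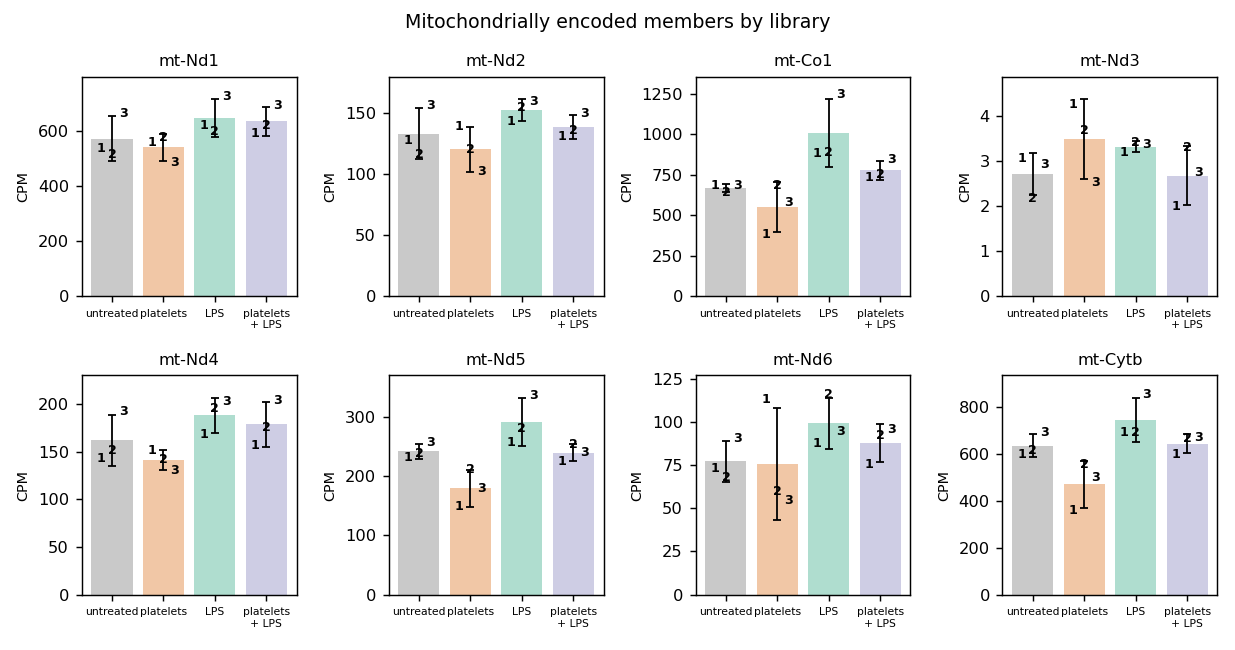
CPM of the 8 mt members in each library, with numbers for replicates, bars for the mean of 3 libraries and lines for 1 SD. In mt-Nd5 and mt-Cytb all platelet libraries lie below the untreated ones, and in mt-Co1 LPS replicate 3, at 1246 CPM, stands above the rest.

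The sum of the mt members over that of the nuclear ones put both genomes on 1 scale that does not depend on library scaling. The ratio was 0.182, 0.166 and 0.173 untreated, and 0.0909, 0.168 and 0.148 with platelets. With LPS it was 0.172, 0.174 and 0.265, and with both 0.158, 0.159 and 0.183. Platelet replicate 1 and LPS replicate 3 were the extremes, and the other 10 libraries lay between 0.148 and 0.183. The mean log2 difference was −0.41 for platelets and 0.20 for LPS against untreated cells. These moved to −0.14 and −0.01 without platelet replicate 1 or LPS replicate 3, so each difference came mostly from 1 library. An exact permutation test of 3 against 3 libraries cannot go below p = 0.1.

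**Figure D4:**
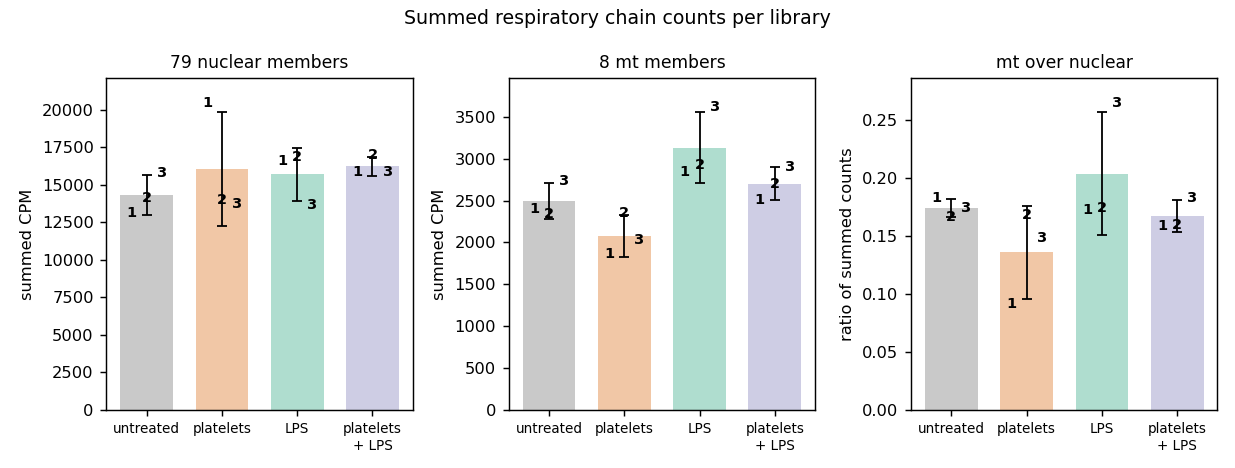
Summed CPM of the 79 nuclear and of the 8 mt members, and the ratio of their summed counts, per library, with numbers for replicates, bars for the group mean and lines for 1 SD. The ratio is 0.0909 in platelet replicate 1 and 0.265 in LPS replicate 3 and between 0.148 and 0.183 in the other 10 libraries.

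How reads that fit several genes were counted is not stated, and its part in the mt values was not tested. The 5 mt genes mt-Co2, mt-Co3, mt-Atp6, mt-Atp8 and mt-Nd4l, were at 0 in all 12 libraries, although their proteins are core subunits. In GENCODE M21, 98.8 to 100% of the 50-base windows of mt-Co2, mt-Co3, mt-Atp6 and mt-Nd4l were also found in another gene, and 0% of those of mt-Atp8. The measured mt-Nd3, at 2.0 to 4.26 CPM, shared 98% of its windows, mt-Nd4 62.2% and mt-Co1 51.1%. For mt-Nd2 and mt-Nd5 the share was 8.19 and 7.61%, and for mt-Nd1, mt-Nd6 and mt-Cytb 0%. mt-Nd5 and mt-Nd6 overlap on opposite strands, and without a stated strand setting reads inside that overlap cannot be told apart. The overlap is shorter than 50 bases, as none of the 470 windows of mt-Nd6, matched on both strands, was shared. Among nuclear members, Atp5l shared 84.8% of its windows and stood at 2.31 to 4.7 CPM. In all, 26 nuclear members shared at least 10%, and levels of these genes are uncertain. Called members that overlap an exon of another gene include Cox6a2, Ndufa9, Atp5a1 and Uqcrc2, with Itgad, 1700018A23Rik, Haus1 and Pdzd9. The 2 mitochondrial ribosomal RNAs took 42.6 to 45.3% of the mt counts untreated and 55.2 to 77.2% with platelets, with platelet replicate 1 the highest. Both were called higher with platelets by edgeR (log2 1.02 and 1.46), beside 3.63% of tested genes. Without platelet replicate 1 both were still called higher (median log2 0.71), beside 4.35% of tested genes. Neither was called with LPS alone or in platelets plus LPS against LPS. Their part in the mt members' levels was not tested.

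Ndufa4 is a subunit of complex IV, and its paralog AA467197 (also called Nmes1, the host gene of Mir147) can take its place in inflamed macrophages, as is known from other work. Ndufa4 was not called in any comparison with all libraries. Without both platelet replicate 1 and LPS replicate 3 it was called higher for LPS after platelets (log2 0.24, edgeR adjusted p = 0.0244, the lowest over its alternatives, the highest being 1). It was at 217, 244 and 279 CPM untreated, at 373, 230.2 and 227 CPM with platelets, at 294, 275 and 219.8 CPM with LPS, and at 266, 294 and 269.9 CPM with both. Its groups overlapped in all comparisons, with a log2 fold change for LPS of 0.09 (95% interval −0.29 to 0.48).

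AA467197, which is not a member by name, was at 0.105, 0.281 and 0.17 CPM untreated and at 10.7, 11.3 and 8.77 CPM with LPS, a 54.2-fold rise (log2 5.76, SE 0.24, edgeR adjusted p = 9.06e-12). With platelets alone it was at 0.563, 0.594 and 0.427 CPM, 2.79-fold above untreated (SE 0.34, edgeR adjusted p = 0.0165), a call lost in 4 of 20 alternatives (adjusted p from 0.00872 to 0.138). With platelets and LPS it was at 30.8, 27.9 and 30.7 CPM, above every library with LPS alone. That was a 2.90-fold difference (SE 0.15, edgeR adjusted p = 8.19e-06), called in all 20 alternatives with adjusted p up to 0.000146. On the log2 scale the effect of platelets was 1.48 without LPS and 1.53 with it. The interaction was 0.05 and was not called (edgeR adjusted p = 1). Its interval is not given, because the SE used here is unreliable for a low-count difference near 0. Because AA467197 overlaps Mir147 on the same strand, reads from the precursor cannot be told apart from it. The gene Ndufa4l2, the other paralog, had 1 count at most.

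**Figure D5:**
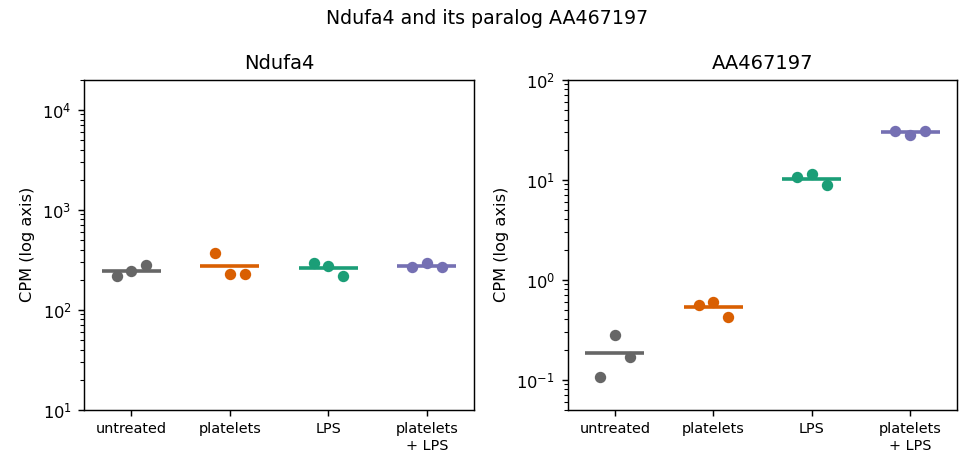
CPM of Ndufa4 and of its paralog AA467197 in each library on log axes, with lines for the mean of 3 libraries. Ndufa4 stays between 217 and 373 CPM, while AA467197 goes from 0.105 to 0.281 CPM untreated to 27.9 to 30.8 CPM with platelets and LPS.

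The genes around the chain were compared in the same fit, from lists that were drawn up with earlier results of these data known. Of complex II and cytochrome c, 1 of 6 was called higher with LPS, Sdha, which oxidises succinate (1.20-fold, edgeR adjusted p = 0.033). All counts for LPS in these lists stand beside 27.7% of tested genes called higher and 23% lower. Of 16 tested complex I assembly factors, 2 rose and 5 fell with LPS. Foxred1 rose 1.55-fold (edgeR adjusted p = 0.000106). Ndufaf7, a methyltransferase, fell from 17.0 ± 1.56 to 8.46 ± 0.590 CPM (SD, n = 3), 2.01-fold (edgeR adjusted p = 5.81e-05), and Tmem126b fell 1.69-fold (edgeR adjusted p = 3.81e-05). Ndufaf4 was 1.58-fold lower (edgeR adjusted p = 7.94e-05). Of 28 assembly factors of complexes III and IV, 6 rose and 4 fell, with Coa5 2.02-fold higher (edgeR adjusted p = 1.99e-06) and Cox18, which inserts subunit 2, 1.67-fold higher (edgeR adjusted p = 4.38e-05). Of 4 genes for ATP synthase assembly and inhibition 0 were called with LPS, and 0 passed at an unadjusted p under 0.05.

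Among 24 genes for transcription and RNA care in mitochondria, 3 rose (12.5%) and 6 fell (25%) with LPS, beside 27.7% and 23% of tested genes. Pnpt1, a ribonuclease of mitochondrial RNA that is also an interferon-stimulated gene, went from 44.7, 48.5 and 47.5 CPM to 138, 123 and 129 CPM (2.77-fold, edgeR adjusted p = 5.47e-08). Twnk, the helicase of mitochondrial DNA replication, fell 1.84-fold (edgeR adjusted p = 0.00352). Of 9 nuclear regulators, 5 rose and 2 fell. Hif1a, the oxygen-sensing factor, was 3.44-fold higher (edgeR adjusted p = 2.64e-08). Esrra was 1.93-fold and Gabpa, an ETS factor of mitochondrial genes, 1.60-fold higher (edgeR adjusted p = 2e-06 and 0.00011). Nrf1 was 1.22-fold higher (edgeR adjusted p = 0.0338), and Myc was 2.32-fold lower (edgeR adjusted p = 1.56e-07). Of 77 mitochondrial ribosomal protein genes 12 were higher (15.6%) and 11 lower (14.3%). With platelets alone 0 members of these 7 lists, which leave out the mitochondrial ribosomal RNAs, were called in edgeR. At an unadjusted p under 0.05, 5 mitochondrial ribosomal protein genes, 2 assembly factors of complexes III and IV, 1 of complex I and 1 gene of complex II and cytochrome c were higher, and 2 regulators and 2 RNA care genes were lower. DESeq2 calls were not counted for these lists. In edgeR without platelet replicate 1 there was 1, a nuclear regulator called higher, beside 4.35% of tested genes.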

How the data were processed

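The 12 RNA-seq libraries were deposited by the authors as whole-number read counts per gene, 53819 genes each, with no normalization. Per the submitters' processing notes, the tools were Salmon 1.5.2, featureCounts of Subread 2.0.1, the trimmer fastp 0.23.1 and the aligner STAR 2.7.9a. Which of them made the counts, and the build, annotation and strand setting, are not stated in the sources used here. Groups came from the labels. The members and gene lists were chosen with earlier results of these data known. In R 4.3.3, edgeR 4.0.16 (limma 3.58.1) fitted 4 group means to all 12 libraries with TMM scaling, filterByExpr (13151 genes tested) and a 2-sided quasi-likelihood test with 8 residual degrees of freedom, adjusted by Benjamini-Hochberg over all tested genes and called at 0.05. The fit was tested on simulated data. Of the members, 1 is counted but its own values are not reported here. Intervals are 95%. DESeq2 1.42.0, other scalings and filters, a replicate block, the compared groups alone and left-out libraries were alternatives.

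Named genes were all mt members, up to 6 called nuclear members per direction and comparison by smallest adjusted p, the 2 highest per complex, fixed isoforms and core subunits, and up to 3 genes per other list. Ndufaf4, Gng11, Gp9, the remaining called members and those that an alternative alone called were named after their values were seen. GENCODE M21 gave lengths, shared windows and overlaps by gene name only. RefSeq (GRCm38.p6) gave the promoters. Counts limit precision as the 3-count floors show, for counting error only.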

Additional observations from a re-analysis of the deposited data

How the results depend on the processing

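With library size alone the LPS comparison had 0 nuclear members higher, 26 lower (median −0.29) and 0 mt members higher (median −0.12). LPS after platelets had 0 nuclear higher, 42 lower (median −0.41), 0 mt higher and 1 lower (median −0.070), and the platelet comparison 0 mt lower. Of all tested genes, 16.2% were higher and 45.4% lower with LPS, 16.7% and 43.7% for LPS after platelets, and 2.56% lower with platelets. Among named members called under either scaling, log2 values turned negative for LPS in Atp5a1 −0.037, Atp5b −0.066, Uqcrc2 −0.00088, Uqcrc1 −0.11, Ndufv1 −0.032, Atp5g1 −0.36 and Atp5g2 −0.37. For LPS after platelets, those past 0 on the negative side were mt-Nd4 −0.014, Atp5a1 −0.078, Atp5b −0.16, Uqcrfs1 −0.036, Uqcrc1 −0.28, Ndufs1 −0.30 and Ndufv1 −0.33. Of the mt members, which were not called there, 7 of 8 were below 0 with LPS. The cause was not tested. DESeq2-type (RLE) scaling gave 0 mt lower with platelets, and 2 nuclear higher and 2 lower for LPS after platelets. Of tested genes 2.12% were then lower with platelets, and 25.1% higher and 24.2% lower for LPS after platelets.

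Without the filter there were 2 nuclear higher and 2 mt lower with platelets, 1 nuclear lower and 2 mt higher with LPS, 1 mt lower for platelets before LPS, and 5 nuclear lower for LPS after platelets. Of all 26048 genes in that fit, 2.33% were higher and 2.22% lower with platelets, and 13.7% and 12.1% with LPS. Lower were 1.55% for platelets before LPS and 11.3% for LPS after platelets. DESeq2 called 2 nuclear higher with platelets, beside 5.88% of tested genes, and 5 nuclear lower for LPS after platelets, beside 25.5%. Fits on the compared groups only gave 0 mt lower with platelets, 1 nuclear lower and 3 mt higher with LPS, and 1 nuclear higher for LPS after platelets. Of tested genes 1.25% were lower with platelets there, 26.8% lower and 29.7% higher with LPS, and 25.2% higher for LPS after platelets. Without platelet replicate 1 and LPS replicate 3 together, chosen after seeing the data, there were 2 mt lower with platelets and 25 nuclear and 2 mt higher with LPS. For LPS after platelets 29 nuclear were higher there (median 0.18). In that fit 28.4% of all tested genes were higher with LPS, and 28.1% for LPS after platelets, and 3.1% were lower with platelets. Among named members called there or in the fit of all libraries, Cox4i1 (0.26), Ndufa2 (0.30), Uqcrq (0.26) and Ndufa4 (0.24) turned positive.

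Leaving out 1 library at a time gave, with platelets, 0 to 2 mt lower (median −0.25 to −0.039). LPS gave 5 to 13 nuclear higher, 0 to 1 lower and 0 to 4 mt higher. Platelets before LPS gave 0 to 2 mt lower, and LPS after platelets 1 to 14 nuclear higher, 0 to 6 lower and 2 to 4 mt higher. Over these fits 24.1 to 29% of tested genes were higher with LPS, and 24.5 to 26.8% for LPS after platelets. With platelets 1.1 to 3.72% were lower, and with LPS 19.3 to 25.7%. For platelets before LPS 1.36 to 5.73% were lower, and for LPS after platelets 18.8 to 24.2%. Same-numbered libraries were treated as unpaired, and no label says whether a number marks a shared mouse or batch. Correlations of their deviations from group means ran from −0.418 to 0.256 over 18 pairs (median 0.0174). Over 36 pairs with different numbers they ran from −0.336 to 0.46 (median 0.00457). Such correlations cannot show whether the libraries were paired. With the replicate block, 2 mt members were lower with platelets, mt-Cytb being added, beside 1.95% of tested genes. The call of Cox6a2 with LPS was among those lost.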
